A study of Mus musculus with 2 samples.

Results

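The collagen genes were the 44 rows, of 27998 gene rows in each count matrix, whose symbol is Col followed by a type number, the letter a and a chain number. By type, 11 encode fibrillar collagens, 8 encode basement membrane collagens (types IV, XV and XVIII) and 25 encode other types. They were counted in 2 droplet single-cell RNA libraries made from C57BL/6J mice. The tissue was the retinal pigment epithelium (RPE), a sheet of pigmented cells that serves the photoreceptors, with the choroid, its bed of vessels and stroma. One group of mice had been given the oxidant sodium iodate (NaIO3), which is toxic to the RPE, at 20 mg/kg by vein, and the control group the same volume of its solvent, phosphate-buffered saline (PBS). The labels give 7 days for both. The eyes of 6 mice were pooled in each group and each pool gave 1 library. The cells taken were hexagonal and brown under the microscope, so other cell types are here only as far as they came along. The sources used here do not state the age or sex of the mice.

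Collagens are built from 3 chains wound into a triple helix. Fibrillar chains assemble into fibrils that carry load, type IV chains form the network of basement membranes, and type VIII, a short-chain collagen, forms hexagonal lattices. The RPE rests on Bruch's membrane, a layered sheet that has a basement membrane on the RPE side, another on the side of the choroidal capillaries, and fibrillar collagen between them.

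The PBS library held 4618 cell barcodes with 51055592 unique molecular identifiers (UMIs, each counting 1 captured RNA molecule) and the NaIO3 library 4058 barcodes with 51168520 UMIs. After filters 4225 and 3816 cells remained, and 34 clusters were found on genes that left all collagens out. Names rest on marker genes, none of them a collagen, so a difference from the study's own cell types may come from these rebuilt names. RPE-like cells numbered 2371 in PBS (clusters 0, 1 and 5) and 1698 in NaIO3 (clusters 1, 5, 13, 22 and 27), with cluster 0 holding most of the PBS cells and cluster 1 most of the NaIO3 cells. A group that held Rpe65 and in which melanin genes such as Pmel and Dct led is called pigment-led (1043 PBS cells in cluster 2, 534 NaIO3 cells in cluster 3). Cluster 3 scored higher on the melanocyte list than on the RPE list, so the cells of both libraries are not shown to be one type. Rpe65 was at 4007 counts per 1000000 UMIs (CPM) in cluster 2 and 2696 CPM in cluster 3, and the part of melanocytes in cluster 3 was not tested. Fibroblast-like cells numbered 295 and 45, mural-like cells, the contractile cells of vessel walls, 68 and 2, and endothelial-like cells 41 and 13. The endothelial-like cells carried Ccl21a and Prox1, genes known from lymphatic vessels, at 5218 and 122 CPM in PBS, beside the general endothelial genes. Another cluster of 213 cells, all from NaIO3 and with a median of 25099 UMIs per cell, was picked by 18 matrix genes other than collagens and is called matrix-rich pigment cells.

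The matrix-rich pigment cells carried some pigment cell genes and not others. Their levels, in CPM of the whole class, came to 208 for Otx2, 245 for Tyrp1 and 1210 for Krt18, against 329, 125 and 1084 for RPE-like cells of the same library. Krt18 is on none of the marker lists. Rpe65, the isomerase of the visual cycle, was at 241 CPM, close to the 264 CPM of macrophage-like cells and far under the 3521 CPM of RPE-like cells. Ttr, Pmel and Sox10 were at 4630, 30.8 and 7.11 CPM, against 4882, 20.4 and 9.06 CPM in macrophage-like cells. The 12 RPE markers summed to 11567 CPM, against 92319 CPM in RPE-like and 8310 CPM in macrophage-like cells of that library. The 9 pigment markers summed to 1034 CPM, against 1405 and 231 CPM in the same order, and the 10 melanocyte markers to 932 CPM, against 1282.5 and 247 CPM. The 13 fibroblast markers summed to 360 CPM, with 92.5 CPM for RPE-like cells and 14318 CPM for fibroblast-like cells of that library, with Pdgfra at 1.09 CPM and none of the markers at 0. The 12 mural markers summed to 2144 CPM, most of it Acta2, a smooth muscle actin, at 1454 CPM, while Rgs5 was at 2.00 CPM and 1 marker at 0. The macrophage and surface epithelium markers summed to 1356 and 1646 CPM, against 1693 and 1701 CPM in RPE-like cells. The part of mixed droplets in this cluster was not tested, and 251 cells fell into it when no doublets were removed.

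With 1 library per group no test of the treatment is possible. Every interval below is an exact 95% interval that covers counting error only, and differences between mice, pools or preparations cannot be told apart from the treatment. UMIs count molecules and are not divided by gene length, so levels are compared within a gene. A gene was called measured in a comparison when both classes together held at least 20 UMIs. Droplets also take up free RNA from broken cells. A level under 0.1 of that in the highest class of the same library is called a free RNA level below, and macrophage-like and surface epithelium-like cells, which should not make most collagens, serve as background. Their numbers were 22 and 66 in PBS and 456 and 688 in NaIO3, so the mix differed between libraries. Col17a1 was highest in surface epithelium-like cells, and the part of other members made by the background cells themselves was not tested.

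Upstream sequence is shown for 5 members that the results below turn on, read 5′ to 3′ on each gene's own strand from RefSeq entries on GRCm38.p6. RefSeq entries were at hand for 35 of the 44 members. Capitals mark any of 6 motifs on either strand: GGGCGG as a GC box, CCAAT as its own box, TATAAA as a TATA box, CATGTG and its relative CACGTG as sites known for MITF, and TAATCC as a site known for OTX2. On the other strand the first reads CCGCCC, the second reads ATTGG and the fourth reads CACATG.

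The first sequence is the whole stretch between the start sites of Col4a4 and Col4a3, which point away from each other on chromosome 1 with 71 bases between them (chr1:82586850-82586920, minus strand). Of 7 pairs compared, these 2 genes followed each other most closely.
Col4a4: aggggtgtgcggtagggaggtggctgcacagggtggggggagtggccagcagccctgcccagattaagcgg
The second is the 250 bases before Col8a1 (chr16:57754738-57754987, minus strand), the member with the most UMIs.
Col8a1: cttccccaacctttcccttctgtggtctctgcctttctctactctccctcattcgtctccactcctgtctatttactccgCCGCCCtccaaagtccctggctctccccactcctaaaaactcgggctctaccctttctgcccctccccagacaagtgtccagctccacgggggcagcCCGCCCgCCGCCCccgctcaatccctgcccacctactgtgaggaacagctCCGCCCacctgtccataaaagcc
Col5a1 (chr2:27886175-27886424, plus strand) and Col11a1 (chr3:114030290-114030539, plus strand) stood highest, among whole classes, in the matrix-rich pigment cells, and Col3a1 (chr1:45311288-45311537, plus strand) in fibroblast-like cells.
Col5a1: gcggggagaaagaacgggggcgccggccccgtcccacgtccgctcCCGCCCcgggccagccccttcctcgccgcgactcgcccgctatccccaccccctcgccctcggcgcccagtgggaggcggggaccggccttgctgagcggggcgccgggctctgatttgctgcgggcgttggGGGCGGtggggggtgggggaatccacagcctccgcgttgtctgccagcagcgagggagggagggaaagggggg
Col11a1: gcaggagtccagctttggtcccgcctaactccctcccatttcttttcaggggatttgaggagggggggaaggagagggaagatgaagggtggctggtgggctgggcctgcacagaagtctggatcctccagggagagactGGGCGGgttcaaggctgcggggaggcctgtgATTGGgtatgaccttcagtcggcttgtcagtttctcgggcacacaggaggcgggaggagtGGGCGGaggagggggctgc
Col3a1: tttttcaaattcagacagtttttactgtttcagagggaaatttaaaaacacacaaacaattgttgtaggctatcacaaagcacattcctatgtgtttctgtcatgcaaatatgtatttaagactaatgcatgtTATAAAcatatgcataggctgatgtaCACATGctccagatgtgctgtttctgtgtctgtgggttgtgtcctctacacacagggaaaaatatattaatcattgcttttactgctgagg

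Over 250 bases, GGGCGG stood in 32.7% of all 32851 RefSeq upstream windows and in 21 of the 35 collagen windows. The shares were 33.8% and 12 windows for CCAAT, 12.4% and 5 windows for TATAAA, 12.3% and 3 windows for CATGTG, 6.02% and 0 windows for CACGTG, and 6.25% and 0 windows for TAATCC. Col8a1 held GGGCGG at 4 places, and G and C made up 60.8% of its bases. Of the Col5a1 and Col11a1 windows, 76.4% and 62.4% were G or C, and each held GGGCGG at 2 places. The Col3a1 window had 35.2% G or C, with TATAAA 117 bases before the start and no GGGCGG. None of the 6 motifs stood in the 71 bases between Col4a4 and Col4a3.

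The heatmap of levels shows which class held which collagens. Both libraries were pooled for this ranking, in which fibroblast-like cells are mostly of PBS and matrix-rich pigment cells all of NaIO3. Of the 34 members measured over all 6 classes, 12 were highest in fibroblast-like cells (35.3%, against 13.0% of all genes tested) and 11 in matrix-rich pigment cells (32.4%, against 19.6% of all genes). Pigment-led cells were highest for 6 members, against 7.27% of all genes, endothelial-like cells for 4, against 28.3%, and mural-like cells for 1, against 22.5%. RPE-like cells were highest for 0 members, against 9.38% of all genes, since pigment-led cells stood above them in Col4a3, Col4a4, Col8a2, Col9a3 and Col18a1. Within NaIO3 alone, Col1a1 and Col1a2, counted here under fibroblast-like cells, were higher in matrix-rich pigment cells. The counts take in members that are at a free RNA level in most classes.

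**Figure D1:**
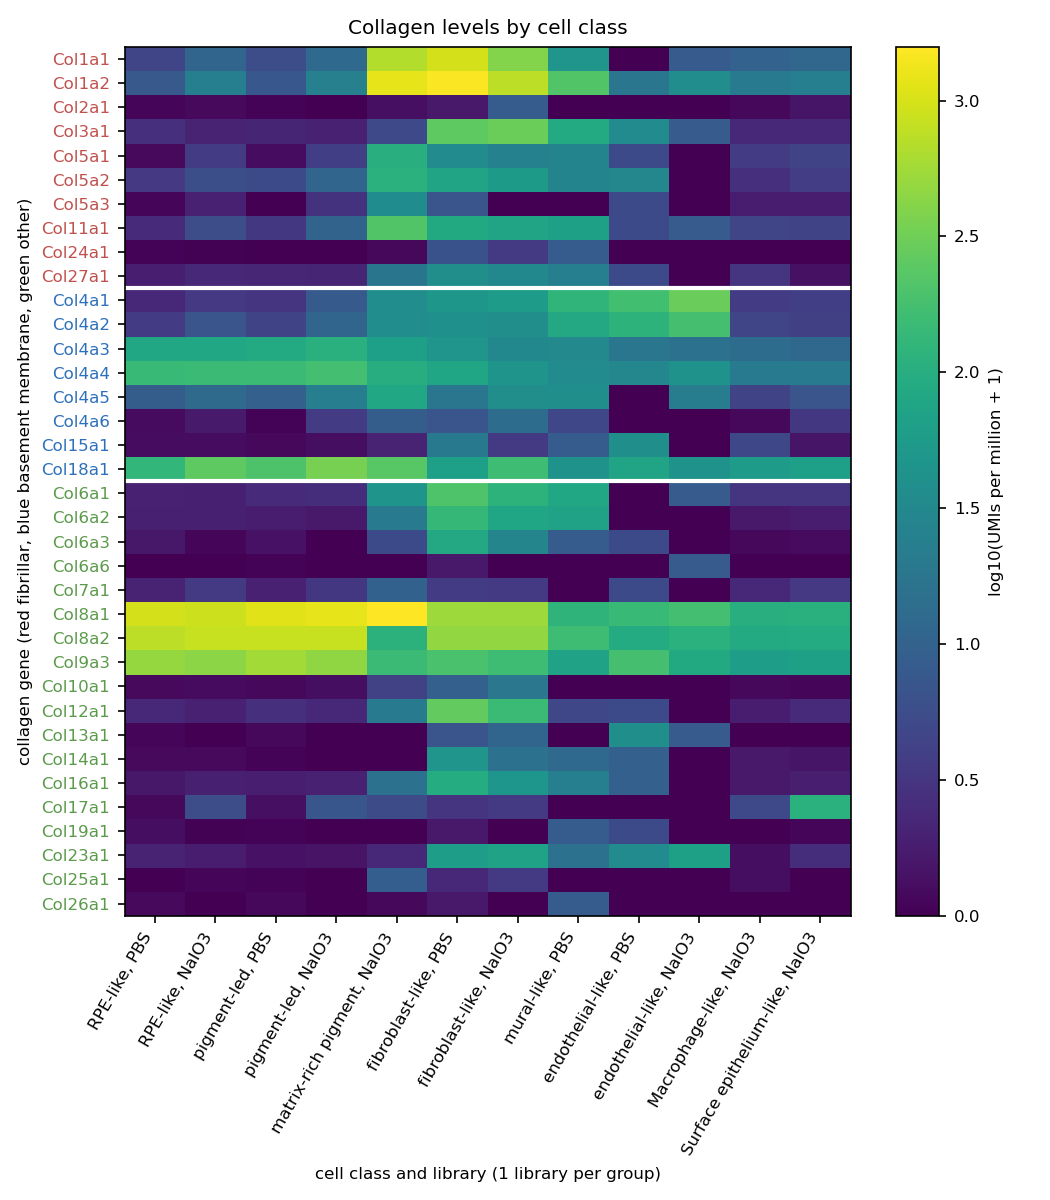
Level of 36 collagen genes (rows, those at 5 CPM or more in a column shown) in 12 combinations of cell class and library (columns), as log10 of CPM plus 1. Col8a1, Col8a2 and Col9a3 are bright in RPE-like and pigment-led cells, Col1a1 and Col1a2 in fibroblast-like and matrix-rich pigment cells, and Col4a1 and Col4a2 in endothelial-like and mural-like cells; the last 2 columns are the background cells.

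Type VIII collagen gave the most UMIs of the collagens of RPE-like cells. Col8a1, whose chain joins that of Col8a2 in hexagonal lattices, was at 965 CPM in RPE-like cells of PBS (954 to 976) and 898 CPM in NaIO3 (885 to 911). At least 1 Col8a1 UMI was found in 99.2% and 99.3% of these cells, against 63.8% of macrophage-like cells in NaIO3. With each cell thinned to 2900 UMIs the RPE-like shares were 92.1% and 90.3%, and that of macrophage-like cells 24.1%. The levels were 8.46 (7.05 to 10.2) and 8.70 (8.25 to 9.18) times those of the background cells. Col8a2 was at 763 CPM in PBS and 838 CPM in NaIO3, 9.10 and 9.23 times the background. Both genes thus stood far above free RNA in both libraries, and the NaIO3 over PBS ratios were close to 1, 0.931 (0.914 to 0.948) for Col8a1 and 1.10 (1.08 to 1.12) for Col8a2. Per cell, Col8a1 had a median of 11 UMIs in PBS and 8 in NaIO3, which as shares of a cell's own UMIs were medians of 923 and 849 CPM.

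Type IX collagen is known from cartilage and vitreous, where its 3 chains decorate fibrils. In RPE-like cells Col9a3 stood far above free RNA, and its partners gave few UMIs. Col9a3 was at 484 CPM in RPE-like cells of PBS and 432 CPM in NaIO3, a ratio of 0.893 (0.869 to 0.917), while Col9a1 was at 1.17 and 1.43 CPM and Col9a2 at 0.0326 and 0.0983 CPM. The Col9a3 level was 4.82 (3.97 to 5.90) times the background in PBS and 6.93 (6.46 to 7.43) times in NaIO3. Col9a1, from 29 and 6 UMIs, was at 3.35 (1.37 to 9.88) times the background in NaIO3. The highest cluster for both partners was of Müller glia-like cells, with 241 CPM of Col9a1 and 28.5 CPM of Col9a2.

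Of the type IV chains, those of the α3α4 pair gave the most UMIs in RPE-like cells. Col4a3, a chain of the specialised basement membrane network known from kidney and eye, was at 78.8 CPM in RPE-like cells of PBS and 80.4 CPM in NaIO3, and its partner Col4a4 at 140 and 149 CPM. The NaIO3 over PBS ratios were 1.02 (0.958 to 1.09) and 1.06 (1.01 to 1.11), so the interval of Col4a3 took in 1. Col4a5, the chain that joins them in one trimer, was at 7.82 and 11.8 CPM, which was 0.891 (0.462 to 1.97) and 2.42 (1.85 to 3.22) times the background. The common chains of vessel basement membranes, Col4a1 and Col4a2, were at only 1.34 and 2.61 CPM in PBS and 2.41 and 6.04 CPM in NaIO3. All are free RNA levels by the limit of 0.1 of the highest class. Against the background cells of NaIO3, however, Col4a2 was at 1.82 (1.29 to 2.60) times, and Col4a1 at 0.85 (0.55 to 1.32) times.

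Col4a3 and Col4a4 kept step across clusters. Spearman's rho over the 34 clusters was 0.966, a description only, since clusters share libraries and free RNA. RPE-like cells held 1.78 (1.70 to 1.87) Col4a4 UMIs per Col4a3 UMI in PBS and 1.85 (1.75 to 1.97) in NaIO3, and matrix-rich pigment cells 1.56 (1.36 to 1.79). Macrophage-like cells of NaIO3, with 127 and 78 UMIs, held 1.63 (1.22 to 2.19), an interval that took in the RPE-like ratio. The 2 other head-to-head pairs were less alike across clusters. Col4a1 and Col4a2, whose annotated starts on chromosome 8 overlap by 22 bases, had a rho of 0.831, and Col4a5 and Col4a6, with 1308 bases between their starts on chromosome X, had 0.659.

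**Figure D2:**
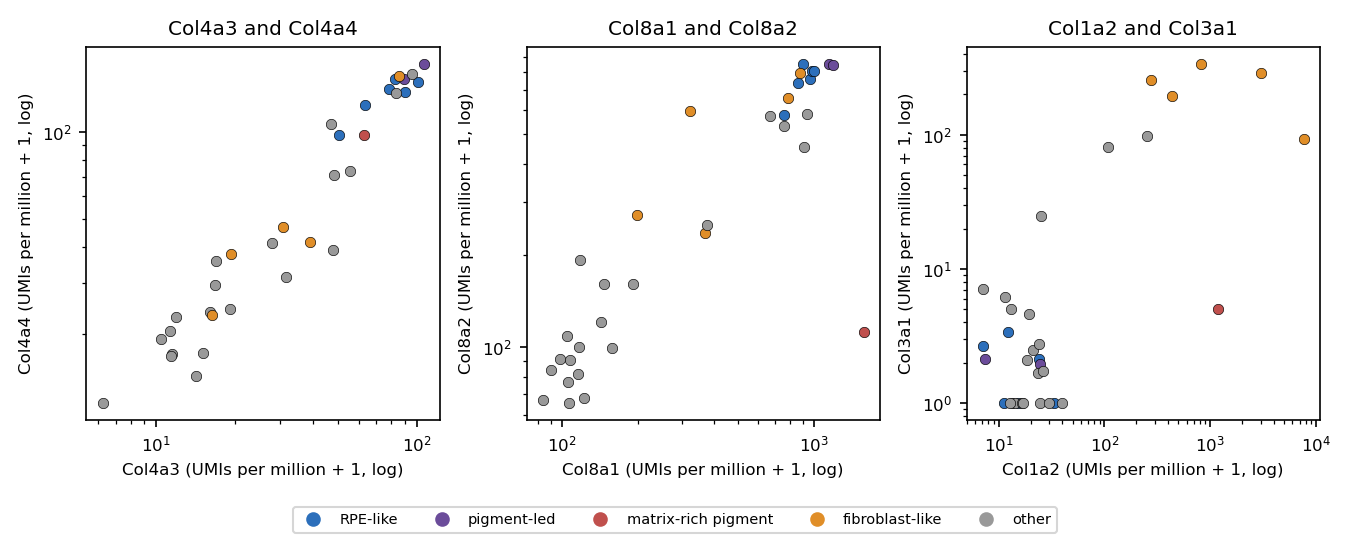
Level of 3 pairs of collagen genes in the 34 clusters, 1 point per cluster, as CPM plus 1 on log axes, coloured by class. Col4a3 and Col4a4 lie along one line; in the second panel the matrix-rich pigment cluster stands apart at high Col8a1 (1573 CPM) and low Col8a2 (112 CPM), and in the third at high Col1a2 (1195 CPM) and low Col3a1 (4.01 CPM).

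Col18a1, whose chain releases endostatin, differed most between the treatments among the abundant RPE collagens. Its level in RPE-like cells was 131 CPM (127 to 136) in PBS and 252 CPM (245 to 259) in NaIO3, a ratio of 1.92 (1.84 to 2.00). In pigment-led cells the levels were 201 and 345 CPM, a ratio of 1.72 (1.62 to 1.83), and in fibroblast-like cells 63.7 and 158 CPM, a ratio of 2.48 (1.78 to 3.44). The background cells also differed, at 26.3 CPM in PBS and 59.4 CPM in NaIO3, so that the RPE-like level was 4.99 (3.43 to 7.58) and 4.24 (3.94 to 4.57) times the background. At 2900 UMIs per cell 33.5% of RPE-like cells in PBS and 54.6% in NaIO3 had a Col18a1 UMI, against 4.55% and 17.8% of the 22 and 456 macrophage-like cells. Before thinning the shares were 76.6% and 92.0%, and 13.6% and 50.7% of macrophage-like cells, with median depths of 11796 and 9596 UMIs in RPE-like cells and 4184.5 and 11838.5 in macrophage-like cells.

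Fibrillar collagens gave few UMIs in RPE-like cells. All 11 together made up 0.695% of collagen UMIs in PBS and 1.85% in NaIO3, at 18.1 and 50.7 CPM, a ratio of 2.80 (2.52 to 3.11). The basement membrane group summed to 363 CPM in PBS and 503 CPM in NaIO3 (ratio 1.39, 1.35 to 1.42), and the other types to 2221 and 2182 CPM (ratio 0.983, 0.971 to 0.994). Of 29 members measured, 11 were at least 2-fold higher in NaIO3, which is 37.9% against 11.2% of all genes tested. That count was 5 with collagens kept in clustering, 7 at a mitochondrial limit of 10% and 7 with free RNA subtracted. Only Col6a3 was at least 2-fold lower, 3.45% against 2.71% of all genes. The median log2 ratio of the measured members was 0.67, against 0.17 over all genes. These 29 include members that entered through 1 library alone.

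The type I genes, Col5a1 and Col11a1 stood in RPE-like cells of NaIO3 at levels that did not differ from the background beyond counting error. Col1a2, a chain of the main fibrillar collagen, was at 6.71 CPM in PBS and 23.2 CPM in NaIO3, a ratio of 3.46 (2.93 to 4.10). Macrophage-like and surface epithelium-like cells of NaIO3, as one background, held it at 21.5 CPM, so the RPE-like level was 1.08 (0.936 to 1.26) times the background. In PBS the background rests on 6 UMIs, and the ratio to it was 1.15 (0.518 to 3.16). Col1a1 was at 3.68 and 9.93 CPM (ratio 2.70, 2.13 to 3.43) and stood at 1.02 (0.814 to 1.27) times the background in NaIO3. Col11a1 was at 1.50 and 4.62 CPM (1.28 times the background, 0.900 to 1.84) and Col5a1 at 0.195 and 2.75 CPM (0.883 times, 0.585 to 1.34). Per cell, 1163 of 1698 RPE-like cells of NaIO3 had no Col1a1 or Col1a2 UMI, and 1 cell had 10 or more.

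Of the 29 measured members, 10 stood above a free RNA level in at least 1 library, and among these 2 were at least 2-fold higher, Col11a2 (0.717 and 1.72 CPM, ratio 2.40, 1.37 to 4.29) and Col7a1, the anchoring fibril collagen (1.08 and 2.51 CPM, ratio 2.33, 1.48 to 3.73). Both rest on few UMIs, 22 and 35 for Col11a2 and 33 and 51 for Col7a1. Against the background cells of NaIO3, Col11a2 was at 2.02 times (1.03 to 4.28), and Col7a1 at 1.31 times (0.807 to 2.17), an interval that took in 1. In PBS, Col7a1 was at 0.368 times (0.115 to 1.87) a background of 3 UMIs. The other members past 2-fold were Col5a2 (ratio 2.02), Col5a3 (10.1, 2.98 to 52.8, from 20 and 3 UMIs), Col4a2 (2.32), Col4a6 (3.02) and Col17a1 (29.3), and downward Col6a3 (0.159, 0.0179 to 0.658, from 19 and 2 UMIs). Col17a1, a hemidesmosome collagen of surface epithelia, was at 4.77 CPM in RPE-like cells of NaIO3 and 62.2 CPM in the background cells, which include 688 surface epithelium-like cells of NaIO3 against 66 of PBS. Col5a2 and Col4a2 in NaIO3 stood at 2.06 (1.38 to 3.16) and 1.82 (1.29 to 2.60) times the background.

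**Figure D3:**
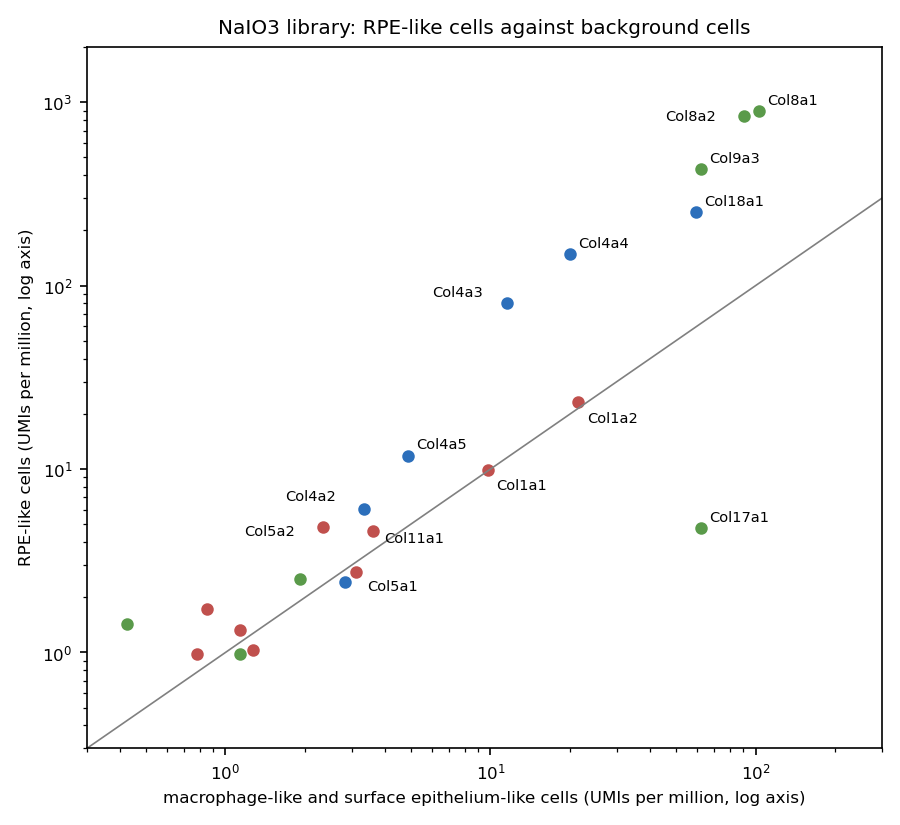
Level of 22 collagen genes in RPE-like cells (vertical axis) against that in macrophage-like and surface epithelium-like cells together (horizontal axis) in the NaIO3 library, in CPM on log axes; red is fibrillar, blue basement membrane and green other types, and the line marks equal levels. Col1a1 and Col1a2 lie on the line (9.93 against 9.77 and 23.2 against 21.5 CPM), while Col4a3, Col4a4, Col18a1, Col9a3, Col8a1 and Col8a2 lie above it.

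**Figure D4:**
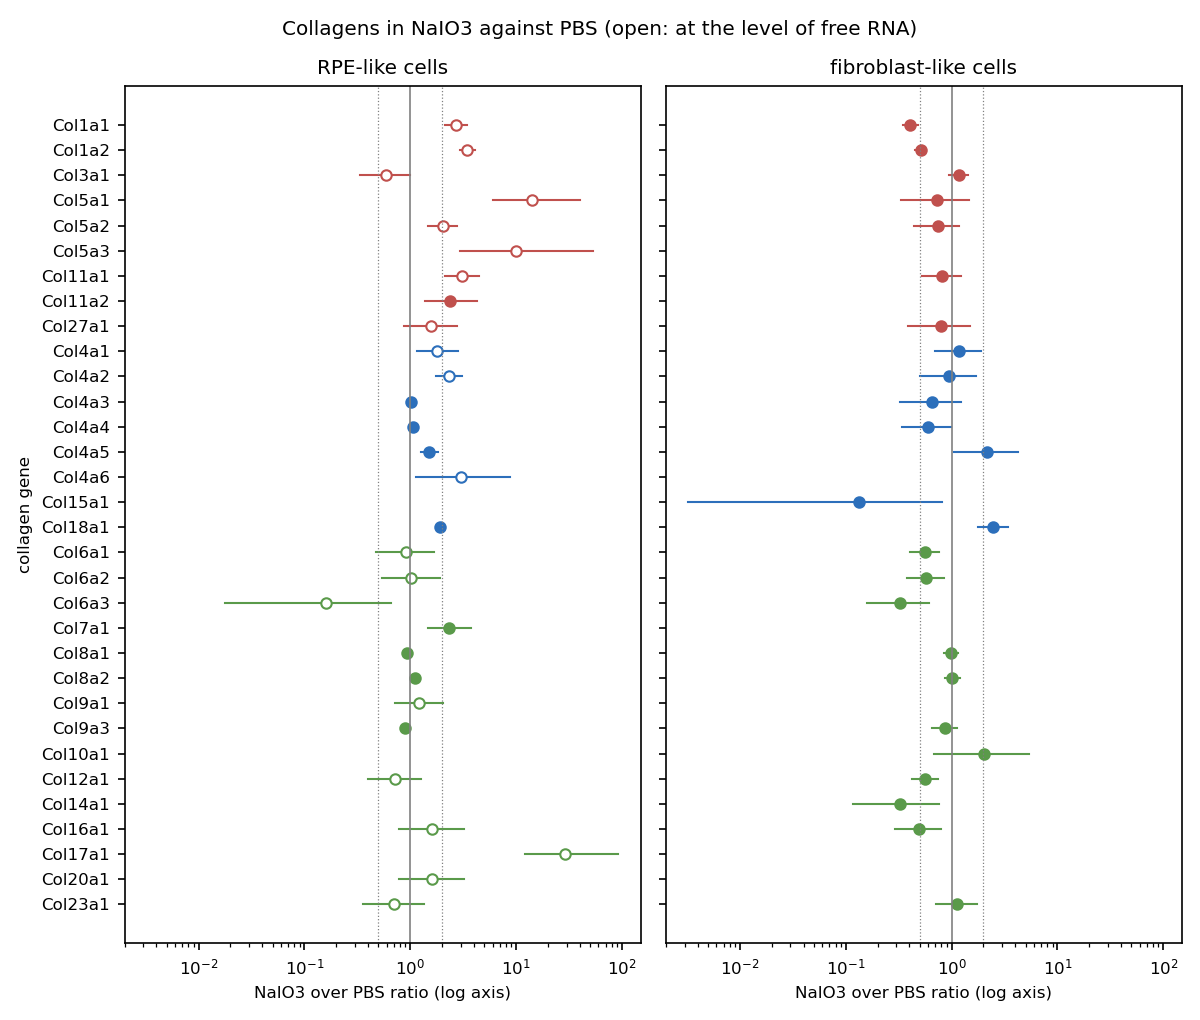
Ratio of NaIO3 over PBS for each collagen measured in RPE-like cells (left) or fibroblast-like cells (right), on a log axis with exact 95% counting intervals; dotted lines mark 2-fold, and open points are genes at a free RNA level in 1 or both libraries. In RPE-like cells the filled points of Col4a3, Col4a4, Col8a1, Col8a2 and Col9a3 lie between 0.893 and 1.10, and most points past 2-fold are open.

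In pigment-led cells of NaIO3 some type IV, V and XI chains stood above the background, as Col4a5, Col5a2 and Col4a2 did in RPE-like cells. The class depends on the clustering: its NaIO3 cells numbered 534 here, 0 at resolution 0.5 and 1264 with collagens kept in clustering. Of 20 members measured, 11 were at least 2-fold higher (55%, against 10.5% of all genes) and 0 were at least 2-fold lower (2.78% of all genes). Of the 9 above a free RNA level in at least 1 library, 3 were higher: Col4a5 at 8.56 and 22.4 CPM (ratio 2.62, 2.01 to 3.43), Col11a2 (2.13) and Col7a1 (2.35), the last 2 with intervals that took in 1. Col7a1 was at 1.18 (0.573 to 2.34) times the background in NaIO3, an interval that took in 1, and Col4a5 at 4.59 (3.42 to 6.22) times, with 0.975 (0.493 to 2.20) times in PBS. Col4a1 and Col4a2 were at 7.11 and 10.2 CPM in NaIO3, which was 2.51 (1.60 to 3.95) and 3.06 (2.06 to 4.56) times the background. Col5a2 was at 10.2 CPM there, 4.35 (2.81 to 6.85) times the background, and Col11a1 at 9.37 CPM, 2.59 (1.75 to 3.86) times. The NaIO3 over PBS ratios were 3.39 for Col4a1, 2.84 for Col4a2, 2.43 for Col5a2 and Col1a1, 4.12 for Col11a1, 3.67 for Col1a2, 11.1 for Col5a1 and 17.6 for Col17a1, and Col1a2 stood at 1.11 (0.902 to 1.35) times the background.

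Matrix-rich pigment cells held fibrillar collagen at the scale of fibroblasts. Type I was at 681 CPM for Col1a1 (660 to 703) and 1195 CPM for Col1a2 (1167 to 1225), which was 68.6 (59.5 to 79.5) and 51.4 (46.8 to 56.6) times the RPE-like level of the same library. Fibroblast-like cells of NaIO3 were at 398 and 756 CPM and those of PBS at 974 and 1488 CPM, so the matrix-rich level lay between them for both genes. Fibrillar genes made up 48.3% of the collagen UMIs of these cells, against 1.85% in RPE-like and 44.1% in fibroblast-like cells of NaIO3. Col5a1, Col5a2, Col5a3 and Col11a1, whose chains are minor parts of type I fibrils, were higher than in the other 5 classes, each taken as a whole. Fibroblast-like cluster 29 alone, 25 cells of PBS, held more of Col5a1, at 174 CPM (105 to 272), and of Col5a2, at 395 CPM (286 to 531). Col11a1 was at 214 CPM, Col5a1 at 103, Col5a2 at 110 and Col5a3 at 34.8 CPM, each between 22.8 and 46.4 times the RPE-like level. Against fibroblast-like cells of NaIO3 the ratios were 2.99 (2.07 to 4.49), 4.18 (2.26 to 8.77) and 2.02 (1.32 to 3.25) for the first 3, and Col5a3 had 0 UMIs among 404669 there, which allows up to 7.41 CPM, so it was at least 4.69-fold higher.

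Type III collagen did not accompany type I in these cells. Col3a1, which fibroblasts lay down with type I, was at 4.01 CPM (2.51 to 6.07) from 22 UMIs, against 297 CPM (246 to 355) in fibroblast-like cells of NaIO3 and 255 CPM (230 to 282) in those of PBS. The matrix-rich to fibroblast-like ratio in NaIO3 was 0.0135 (0.00817 to 0.0214). Per Col1a2 UMI, matrix-rich pigment cells held 0.00335 Col3a1 UMIs (0.00210 to 0.00508), fibroblast-like cells of NaIO3 0.392 (0.315 to 0.486) and of PBS 0.172 (0.154 to 0.191). A Col3a1 UMI was found in 6.57% of matrix-rich pigment cells, with a median of 25099 UMIs per cell, and in 68.9% of fibroblast-like cells of NaIO3, with a median of 6935. The level was under 0.1 of that in fibroblast-like cells, a free RNA level, and macrophage-like cells of NaIO3 held 1.29 CPM.

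The collagens that marked RPE-like cells stood at unequal ratios. Col8a1 was higher than in any other class, at 1573 CPM (1540 to 1607), 1.75 (1.71 to 1.80) times the RPE-like level, and Col18a1 was at 233 CPM, 0.926 (0.870 to 0.984) times. Col8a2, in contrast, was at 112 CPM (103 to 121), 0.133 (0.123 to 0.144) times the RPE-like level, and close to the 90.7 CPM of the background cells. Matrix-rich pigment cells held 0.0709 Col8a2 UMIs per Col8a1 UMI (0.0652 to 0.0769), against 0.932 (0.913 to 0.952) in RPE-like and 0.902 (0.739 to 1.10) in fibroblast-like cells of that library. Col9a3 was at 151 CPM, 0.351 (0.326 to 0.377) times RPE-like cells. Col4a3 and Col4a4 were at 61.9 and 96.7 CPM, 0.770 (0.684 to 0.866) and 0.649 (0.591 to 0.712) times.

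Other type IV chains stood higher. Col4a5 was at 81.6 CPM, 6.89 (5.88 to 8.09) times the RPE-like level, Col4a1 at 35.7 CPM, 14.8 (10.8 to 20.7) times, and Col4a2 at 35.9 CPM, 5.94 (4.72 to 7.50) times. Among the remaining types, type VI, a beaded filament collagen, was at 43.5 CPM for Col6a1 and 19.7 CPM for Col6a2, against 116 and 76.6 CPM in fibroblast-like cells of NaIO3. Col12a1, which binds to type I fibrils, was at 20.2 CPM against 151, and Col16a1 at 14.9 against 47.0. Col23a1, a membrane-spanning collagen, was at 1.28 CPM against 69.2. Col25a1, also membrane-spanning, was at 8.02 CPM from 44 UMIs, and these were 44 of the 53 UMIs of that gene in all cells kept.

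In all, 31 members were measured between matrix-rich pigment and RPE-like cells of NaIO3. Of these, 20 were at least 2-fold higher in matrix-rich pigment cells (64.5%, against 21.9% of all genes) and 3, Col8a2, Col9a3 and Col11a2, at least 2-fold lower (9.68%, against 12.5% of all genes). The interval of Col11a2 took in 1. The median log2 ratio was 3.51 over the members and 0.21 over all genes. Beside the members given above, those past 2-fold upward were Col3a1 (3.88), Col27a1 (12.5), Col4a6 (11.4), Col6a3 (42.6, 10.5 to 373, on 23 and 2 UMIs), Col10a1 (13.3) and Col7a1 (3.49). Members such as Col6a3 passed the limit of 20 UMIs through the matrix-rich class alone. The cluster was also picked by other matrix genes, so these counts are a description.

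**Figure D5:**
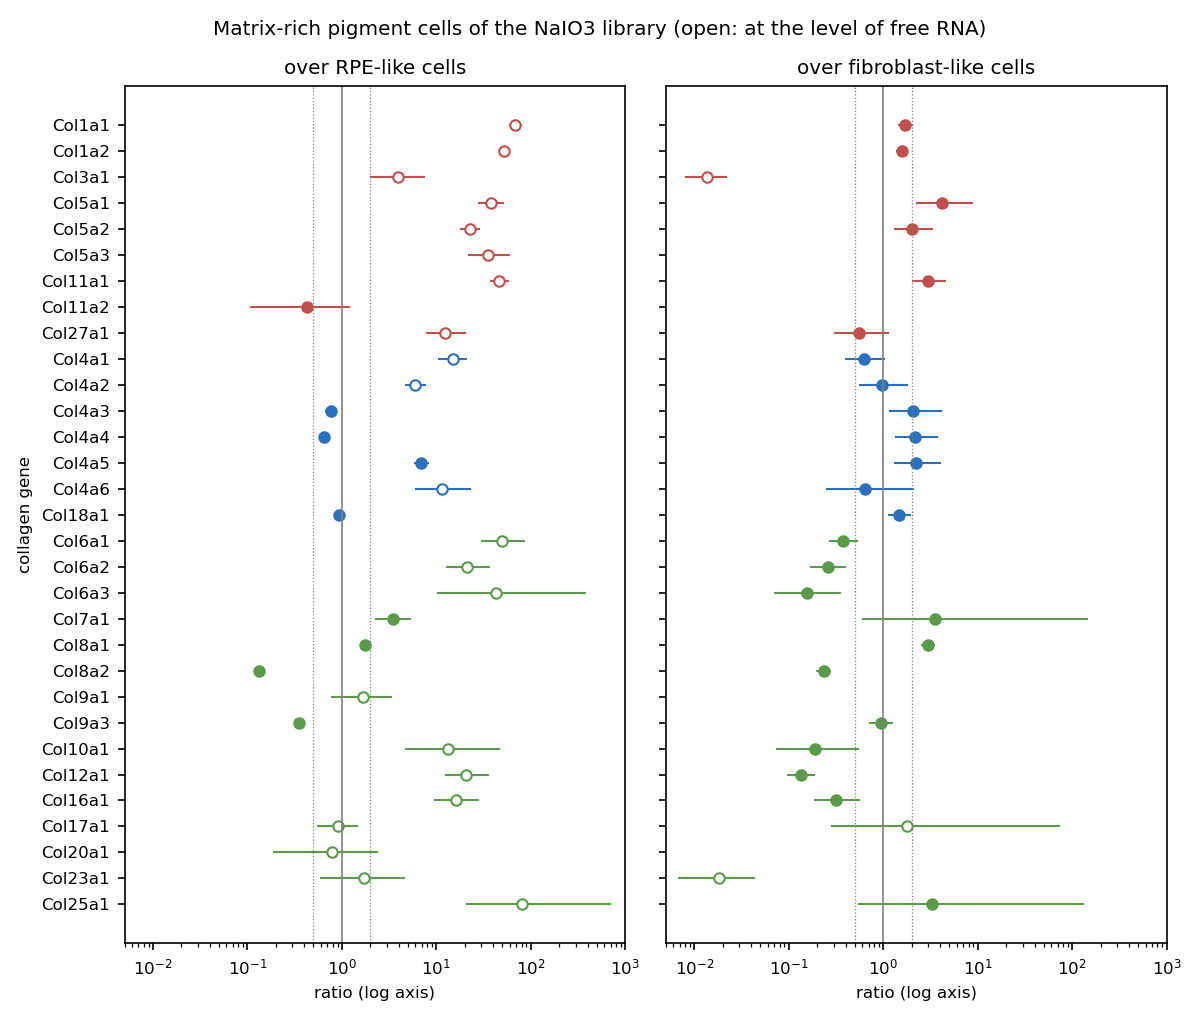
Ratio of the level in matrix-rich pigment cells over RPE-like cells (left) and over fibroblast-like cells (right) of the NaIO3 library for each collagen measured, on a log axis with exact 95% counting intervals; open points are genes at a free RNA level in 1 or both of the classes compared. On the left Col1a1 lies at 68.6 and Col1a2 at 51.4; on the right they lie at 1.71 and 1.58, and Col3a1 at 0.0135; Col8a2 is low in both panels, at 0.133 and 0.234.

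The matrix-rich pigment cells were not alike among themselves. Clustered more finely, again without collagens, they gave one sub-cluster of 129 cells and another of 84 cells. Col1a2 was at 1701 CPM in the larger and 217 CPM in the smaller, Col1a1 at 965 and 132 CPM, and Col5a1 at 147 and 19.2 CPM. Col11a1 differed less, at 227 and 189 CPM. The order was opposite for Col4a3 (27.1 and 129 CPM), Col4a4 (53.9 and 180 CPM), Col4a5 (48.9 and 145 CPM) and Col9a3 (89.6 and 271 CPM). Cdkn2a, a cell cycle inhibitor and one of the 18 genes that picked the cluster, was at 700 and 106 CPM, and the median depth was 27768 and 21634 UMIs. Per cell, the summed Col1a1 and Col1a2 counts had a median of 25 UMIs and a maximum of 250, with 7 of 213 cells at 0, so the spread within the class was wide.

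Fibroblast-like cells held collagens of several types. In PBS, Col1a1 was at 974 CPM, Col1a2 at 1488, Col3a1 at 255, Col12a1 at 268, Col6a1 at 208, Col6a2 at 133, Col16a1 at 94.8 and Col6a3 at 82.9 CPM. The 5 clusters of the class differed widely among themselves. Cluster 29, with 25 cells that were all of the PBS library, held Col1a2 at 7661 CPM, Col12a1 at 1321 and Col6a1 at 1239 CPM. Cluster 17 held 3043, 664 and 260 CPM, and cluster 10 held 822, 103 and 156 CPM. Col3a1 went another way, at 91.8 CPM in cluster 29, 286 in cluster 17 and 335 in cluster 10. Col23a1 stood out in cluster 15, at 224 CPM against 14.7 to 37.7 CPM in the other 4.

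Type VIII UMIs were also found in fibroblast-like cells. Col8a1 was at 535 CPM in PBS and 529 CPM in NaIO3, and in cluster 17 Col8a1 and Col8a2 were at 881 and 792 CPM where Rpe65 was at 894 CPM. RPE-like cluster 0 held Rpe65 at 3994 CPM with Col8a1 at 961 CPM. In clusters 10, 15 and 29 Col8a1 was at 368, 197 and 321 CPM, where Rpe65 was at 395, 694 and 395 CPM. Cluster 16 held Rpe65 at 2870 CPM, and the whole class held it at 1226 CPM in PBS and 1283 CPM in NaIO3. The part of RPE RNA in the collagen levels of the class was not tested.

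Between the libraries, 25 members were measured in fibroblast-like cells. At least 2-fold higher in NaIO3 were 3 of them (12%, against 4.93% of all genes), Col18a1, Col4a5 (2.15, 1.06 to 4.21) and Col10a1 (2.01, 0.678 to 5.41). At least 2-fold lower were 5 (20%, against 6.83% of all genes): Col1a1 (0.408, 0.345 to 0.481), Col6a3 (0.328, 0.160 to 0.607), Col14a1 (0.329, 0.117 to 0.753), Col16a1 (0.495, 0.290 to 0.802) and Col15a1 (0.133, 0.00326 to 0.805, on 28 and 1 UMIs). Col1a2 was just inside, at 0.508 (0.450 to 0.573), and Col3a1 at 1.16 (0.938 to 1.43). Cluster 29 decided part of this: without it Col1a1 was at 533 CPM in PBS, a ratio of 0.746 (0.625 to 0.886), Col1a2 at 0.751 (0.661 to 0.850), Col6a3 at 0.559 (0.267 to 1.07), Col16a1 at 0.626 (0.362 to 1.03), and 2 members instead of 5 were at least 2-fold lower. Without cluster 16, 8 of 24 measured were at least 2-fold lower, Col1a2 (0.474), Col6a2 (0.457) and Col12a1 (0.487) being added. The NaIO3 value rests on 45 cells.

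Vessel cells were marked by the common type IV chains. Col4a1 was at 169 CPM in endothelial-like cells of PBS (121 to 230) and 289 CPM in NaIO3 (207 to 394), a ratio of 1.71 (1.08 to 2.73) from 40 UMIs in each. For Col4a2 the levels were 114 and 181 CPM, and the interval of their ratio of 1.59 took in 1 (0.883 to 2.84). The 12 mural markers summed to 207 CPM in endothelial-like cells of PBS and 644 CPM in the 13 such cells of NaIO3. Among these markers Rgs5 was at 42.2 and 362 CPM, and Acta2 at 42.2 and 57.9 CPM. The part of mural RNA in the type IV levels was not tested. Col9a3, which RPE-like cells hold at a higher level, was at 177 and 86.8 CPM (ratio 0.490, 0.235 to 0.947). In mural-like cells of PBS, Col4a1 was at 122 CPM (83.5 to 172) and Col4a2 at 83.9 CPM (52.6 to 127), intervals that overlap those of endothelial-like cells. Col15a1, a basement membrane zone collagen, and Col13a1, a membrane-spanning one, were each at 38.0 CPM (17.4 to 72.1) in endothelial-like cells of PBS.

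Mural-like cells held type I unevenly, with Col1a2 at 214 CPM and Col1a1 at 45.8 CPM in PBS, 0.214 (0.105 to 0.404) Col1a1 UMIs per Col1a2 UMI against 0.655 (0.613 to 0.699) in fibroblast-like cells. With 2 mural-like cells in NaIO3 no comparison between libraries was made for them.

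The genes that modify, fold, cut, cross-link and bind collagen were taken as 94 genes in 6 lists. In RPE-like cells 17 of 66 measured were at least 2-fold higher in NaIO3 and 2 were at least 2-fold lower, against 11.2% and 2.71% of all genes. Of the 17, 6 stood above a free RNA level in at least 1 library. Those above it in both libraries were P4hb, the β subunit of prolyl 4-hydroxylase, at 47.5 and 95.9 CPM (ratio 2.02, 1.88 to 2.16), and P3h1, a prolyl 3-hydroxylase, at 4.30 and 8.94 CPM (2.08, 1.65 to 2.62). P4ha2 (3.21), Bmp1 (4.43), Loxl3 (2.92) and Pxdn (2.23) were above it in 1 library only, and Plod1, Plod2, Fkbp10, Creb3l1, Lox, Lair1, Cd44, Bgn, Fn1, Lama5 and Lamb3 in neither. The 2 lower genes, the fibroblast proteoglycans Dcn (0.384, 0.331 to 0.443) and Lum (0.215, 0.149 to 0.304), were free RNA in both, beside 295 fibroblast-like cells in PBS and 45 in NaIO3.

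In matrix-rich pigment cells many of these genes stood higher, as the fibrillar chains did. Of 62 measured that were not used to pick the cluster, 41 were at least 2-fold higher than in RPE-like cells of NaIO3 and 4 at least 2-fold lower, beside 21.9% and 12.5% of all genes. These counts too are a description, since other matrix genes picked the cluster. The 41 include P3h2, Tgm2, Fmod and Lama4, which were at a free RNA level in both classes. Of 14 hydroxylation and glycosylation genes, 12 were at least 2-fold higher and 0 lower, among them Plod2, which hydroxylates lysines for cross-links, at 54.7 against 1.77 CPM (30.9, 21.8 to 45.0). Serpinh1, the collagen chaperone HSP47, was at 730 against 107 CPM (6.85, 6.50 to 7.22). Of the genes that cut and cross-link collagen, 9 of 11 were higher. Lox, a lysyl oxidase, was at 249 against 4.82 CPM (51.8, 42.2 to 64.2), and Bmp1, which removes the C-propeptide of fibrillar procollagens, at 369 against 25.7 CPM (14.4, 13.0 to 15.8). In RPE-like cells Plod2, Lox and Bmp1 were at free RNA levels. The lower ones of the 62 were Loxl4, Lair1, Nid2 and Frem1, at ratios of 0.397, 0.273, 0.386 and 0.356. Of these, Lair1 was at a free RNA level in both classes, on 7 and 95 UMIs. Lair1 is a collagen receptor of leukocytes, and Nid2 and Frem1 belong to basement membranes.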

How the data were processed

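Gene expression was measured by droplet single-cell RNA sequencing in 1 PBS and 1 NaIO3 library. The deposited values are UMI counts per gene and cell barcode, made by the authors with Cell Ranger 3.0.2 and mm10, per the submitters' processing notes. For the annotation release, strand setting, handling of reads with several matches and cell calling, the entry is: not given in the sources used here. The libraries held 2979 to 63062 UMIs per barcode in PBS and 4217 to 76174 in NaIO3.

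Barcodes with under 500 genes or over 25% mitochondrial UMIs were left out (231 in PBS, 114 in NaIO3), and Scrublet scores, taken by rank in proportion to the number of barcodes, removed 162 and 128 as likely doublets. Of the barcode sequences, 24 occurred in both libraries, 21 of them among the cells kept. Counts were scaled to 10000 per cell. Clustering with scanpy 1.11.5 used 2000 variable genes without collagens, 30 principal components, 15 neighbours and Leiden resolution 1 (leidenalg 0.10.2). A cluster was named when at least 3 markers of a class stood 2-fold above the median of the clusters, with a mean log2 ratio of at least 1. No other list could have more markers among the 10 leading genes, the pigment lists being set aside for RPE. A cluster at over 3-fold less than its library's median depth, with no marker among those 10, lost its name. The matrix-rich cluster met the first limits for mural cells (6 markers, mean 1.32), but had 5 matrix markers and 1 mural marker among its leading genes. The matrix-rich cluster needed a mean log2 ratio of at least 2 over 18 matrix genes other than collagens.

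UMIs were summed per class and library and given as CPM. Intervals are exact at 95% and cover counting error only: Poisson for a level, binomial on the summed UMIs for a ratio, Clopper-Pearson for a share; the floor of a count of 0 is 3 UMIs. Genes past 2-fold were counted among those with at least 20 UMIs in the pair. With 1 library per group no test was made. Named in the text were members at 100 CPM or more in a class, those of types I, III, IV, VIII, XV and XVIII with at least 20 UMIs in RPE-like cells, members past 2-fold between libraries with an interval that left out 1, and pathway genes past 2-fold in RPE-like cells; others that are named were chosen after their values were seen. The members and lists were chosen with earlier results of these data known. The scripts were tested on simulated data. Alternatives were the clustering resolution, collagens kept in clustering, a mitochondrial limit of 10%, no doublet removal, no minimum of counts, RPE-like and pigment-led cells as one class, TMM scaling (edgeR 4.0.16), subtraction of free RNA with its share taken from surface epithelium markers, and the mean of single-cell CPM. Leaving out fibroblast-like clusters 16 and 29 was added after seeing the data. Upstream sequences are from RefSeq on GRCm38.p6, and gene positions from GENCODE.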

Additional observations from a re-analysis of the deposited data

Results flagged for a closer look

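For 4 genes the NaIO3 over PBS ratio lay above 1 in one class and under 1 in another, with both intervals leaving out 1; the difference between the classes was not tested. Col1a1 had a ratio of 2.70 in RPE-like and 2.43 in pigment-led cells, and 0.408 in fibroblast-like cells. Col1a2 had 3.46 in RPE-like and 3.67 in pigment-led cells, and 0.508 in fibroblast-like cells. The RPE-like and pigment-led values of both genes are at a free RNA level, and without fibroblast-like cluster 29, whose 25 cells are all of PBS, the fibroblast-like ratios were 0.746 and 0.751. Col4a4 had 1.06 in RPE-like, 1.13 in pigment-led and 0.594 (0.340 to 0.981) in fibroblast-like cells, the last from 18 and 113 UMIs. Without fibroblast-like cluster 16, which held Rpe65 at 2870 CPM, that ratio was 0.865 (0.367 to 1.83), from 9 and 37 UMIs, an interval that took in 1. Col8a1 had 0.931 in RPE-like and 1.04 in pigment-led cells, a border between classes that moves with the clustering.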

How the results depend on the processing

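No paired analysis was possible because each group has 1 library and the labels give no shared replicate numbers. Of 70 values, 7 results under 10 alternatives each, 49 stayed within counting error or, for counts of genes, within 1.5 times. Another 20 moved and 1 reversed, and the cause was not tested. The 49 include the summed log2 ratios with no minimum of counts, a step that cannot change them. The log2 ratio of the summed fibrillar genes in RPE-like cells, 1.49, was 1.30 with TMM and 0.88 with free RNA subtracted. That subtraction took 21.2% from RPE-like cells of PBS and 16.4% from those of NaIO3. In RPE-like cells of PBS a single surface epithelium marker gave 150 of the 223 CPM of the list. No marker passed 27.8 CPM in macrophage-like cells of PBS. Whether RPE-like cells make that marker, so that the PBS share is too large, was not tested. That of the basement membrane genes, 0.47, was 0.52 at resolution 0.5, 0.40 at resolution 2, 0.24 with collagens kept in clustering, 0.23 at a mitochondrial limit of 10%, 0.29 with TMM, 0.53 with free RNA subtracted and 0.57 as the mean of single cells. For the other types, -0.03 became -0.065 at resolution 2, -0.12 with collagens kept, -0.10 at the 10% limit, -0.21 with TMM and, with the sign reversed, 0.040 with free RNA subtracted. The count of members at least 2-fold higher in RPE-like cells, 11, was 5 with collagens kept, 7 at the 10% limit and 7 with free RNA subtracted, a step that left some members at 0 in 1 library and so without a value. The count at least 2-fold lower, 1, was 2 with collagens kept, 4 with no minimum of counts, and 0 with free RNA subtracted or as the mean of single cells. In fibroblast-like cells the 5 lower members were 8 without cluster 16 and 2 without cluster 29. TMM moved the median log2 ratio of all genes from 0.17 to -0.02. RPE-like cells numbered 647 to 2198 in NaIO3 across clustering settings, pigment-led cells 0 to 1264 and matrix-rich pigment cells 171 to 251. Members under 20 UMIs could not be compared at this depth.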

Other observations

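Outside the classes compared above, Col17a1 was highest in surface epithelium-like cluster 9, at 270 CPM (244 to 298), which held 392 of its 1122 UMIs. Müller glia-like cluster 21, with 3 PBS and 45 NaIO3 cells, was the highest for Col9a1, at 241 CPM (194 to 295) from 93 of 207 UMIs. It was also the highest for Col2a1, the main chain of cartilage and vitreous fibrils, at 49.2 CPM (29.6 to 76.9) from 19 of 42 UMIs, and for Col9a2, at 28.5 CPM (14.2 to 51.0) from 11 of 20 UMIs. Members with hardly any UMIs in the cells kept were Col6a4 with 2, Col6a5 with 2, Col6a6 with 3 and Col28a1 with 6.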
